A study of Mus musculus with 8 samples.

Results

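The variable segments of the T cell receptor alpha chain were described as the 99 genes of the deposited day 7 table whose symbol begins with Trav, out of 18438 genes in all. They were chosen by symbol, with no measured value. The RNA was that of splenic T cells, sorted on day 7 of EAE (experimental autoimmune encephalomyelitis, an inflammatory disease of the central nervous system). All mice were of strain C57BL/6 and had received MOG, a myelin protein. The 4 groups of 2 libraries each were regulatory T cells (Treg, CD4+CD25hiYFP+) of IRE1a-/- mice (KO), Treg of WT mice, effector T cells (Teff, CD4+CD25-YFP-) of KO mice and Teff of WT mice. The mice of all 4 groups had EAE, and the labels leave out in which cells IRE1a, an endoplasmic reticulum stress sensor encoded by Ern1, was deleted. Nor do they tie libraries to animals, and p-values therefore reflect only how far these libraries varied, which may be technical.

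The alpha chain of the T cell receptor is assembled in the thymus by joining 1 V segment to 1 J segment, and the joined exon is spliced to the constant segment Trac. Each mature T cell clone therefore reads out mainly the V segment it has joined, and the reads of the Trav rows in a bulk sample describe how often each segment is carried and how strongly it is transcribed. In bulk samples, fewer cells carrying a segment and less RNA per cell cannot be told apart. In the mouse locus a stretch of V segments has been duplicated, and the letters d and n in a name mark the extra copies of a segment; names with dv mark segments that can also be joined in the delta chain. Trav11 is the segment of the invariant receptor of NKT cells, and Trav1 that of MAIT cells.

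By the GENCODE M21 annotation (GRCm38), the 99 rows lay on the plus strand of chromosome 14, between positions 52427928 and 53977678. They comprised 90 V genes and 9 pseudogenes in 23 families. By name 28 were d copies, 21 were n copies and 50 had no letter. Of the 128 Trav genes annotated, 31 were not analysed here. A test was made where 2 or more libraries reached a value of 10, which 91 rows did; the other 8, Trav6d-3, Trav3-2, Trav15-2-dv6-2, Trav12-4, Trav18, Trav20, Trav22 and Trav23, were not tested.

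Many copies are nearly the same sequence, which decides how far a 50-base read can be given to 1 row. For each row, all windows of 50 bases were taken from its annotated transcripts. In the median row 48.6% of windows occurred in no other annotated transcript, 10 rows had all windows to themselves, and 21 had none. The Trav10 copies show what separates such rows. Their coding exons, each of 291 bases, are printed with capitals at the 5 positions where the 3 copies are not all alike. They lie at chr14:52811206-52811496 (Trav10d), chr14:53122320-53122610 (Trav10n) and chr14:53505996-53506286 (Trav10), all on the plus strand, and are taken from GENCODE M21 (GRCm38).
Trav10d: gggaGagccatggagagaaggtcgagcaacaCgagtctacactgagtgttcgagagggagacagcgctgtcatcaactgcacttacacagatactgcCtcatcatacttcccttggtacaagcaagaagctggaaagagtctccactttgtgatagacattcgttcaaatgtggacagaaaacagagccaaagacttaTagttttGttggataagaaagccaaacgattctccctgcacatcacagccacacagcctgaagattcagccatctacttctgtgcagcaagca
Trav10n: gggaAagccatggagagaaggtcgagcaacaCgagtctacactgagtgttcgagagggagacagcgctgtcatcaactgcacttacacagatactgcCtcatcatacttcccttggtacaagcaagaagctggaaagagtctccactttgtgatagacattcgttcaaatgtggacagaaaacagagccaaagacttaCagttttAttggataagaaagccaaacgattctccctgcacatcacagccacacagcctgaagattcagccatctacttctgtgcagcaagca
Trav10: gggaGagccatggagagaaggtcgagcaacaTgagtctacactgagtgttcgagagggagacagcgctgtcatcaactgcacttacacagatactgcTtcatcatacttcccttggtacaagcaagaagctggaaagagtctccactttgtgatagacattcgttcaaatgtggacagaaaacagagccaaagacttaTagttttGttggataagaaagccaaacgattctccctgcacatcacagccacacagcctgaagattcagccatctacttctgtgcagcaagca
Trav10d and Trav10n differ at 3 of these bases, Trav10d and Trav10 at 2, and Trav10n and Trav10 at 5. Within this exon, a read that covers no capital fits all 3 copies.

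The coding exons of Trav7d-6 (chr14:53020704-53020991) and Trav7n-6 (chr14:53324921-53325208), of 288 bases each, are shown because they do not differ at any base, so they carry no capitals and a read inside them cannot be given to either copy by its sequence.
Trav7d-6: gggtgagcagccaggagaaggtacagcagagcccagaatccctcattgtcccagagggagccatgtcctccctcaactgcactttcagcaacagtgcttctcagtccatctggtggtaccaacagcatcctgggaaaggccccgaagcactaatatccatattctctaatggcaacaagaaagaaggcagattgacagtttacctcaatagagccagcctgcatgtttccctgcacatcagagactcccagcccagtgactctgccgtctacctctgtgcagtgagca
Trav7n-6: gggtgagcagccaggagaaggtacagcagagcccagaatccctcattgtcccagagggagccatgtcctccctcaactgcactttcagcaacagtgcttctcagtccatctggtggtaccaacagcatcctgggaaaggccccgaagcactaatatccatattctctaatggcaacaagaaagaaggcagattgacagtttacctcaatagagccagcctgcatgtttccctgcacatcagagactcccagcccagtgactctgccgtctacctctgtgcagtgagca
The Trav16 copies are shown over 50 bases of their coding exons, at chr14:53047743-53047792 (Trav16d-dv11), chr14:53351543-53351592 (Trav16n) and chr14:53743627-53743676 (Trav16), with capitals at the 2 positions where they are not all alike.
Trav16d-dv11: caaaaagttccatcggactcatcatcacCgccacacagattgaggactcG
Trav16n: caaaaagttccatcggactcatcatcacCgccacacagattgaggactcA
Trav16: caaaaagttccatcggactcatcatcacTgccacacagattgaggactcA
Such copies are given both as deposited rows and as sums over copies.

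All Trav rows together made up a small and even part of each library. The deposited values are normalized read numbers, and the Trav rows summed to 5863 and 6020 in Treg of KO mice, 6116 and 5995 in Treg of WT mice, 6890 and 6789 in Teff of KO mice, and 6974 and 7325 in Teff of WT mice. The genotypes overlapped in Treg and lay close together in Teff, and all 4 Treg libraries lay below all 4 Teff libraries. As a share of all reads in the library, the sum ran from 0.0335% to 0.03434% in the 4 Treg libraries and from 0.03695% to 0.03907% in the 4 Teff libraries. No test was made on this sum. No segment dominated: the highest row of a library held 3.07% to 3.81% of its Trav reads, and the 10 highest held 25.8% to 29.1%. The effective number of rows, the exponential of the Shannon entropy of the shares, was 66.6 and 69.1 in Treg of KO mice, 71.2 and 67.6 in Treg of WT mice, 67.9 and 71.3 in Teff of KO mice, and 70.8 and 71.8 in Teff of WT mice. It overlapped between genotypes in both cell types.

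The 12 rows of highest mean over the 8 libraries were Trav6-6, Trav7-4, Trav14d-2, Trav14d-3-dv8, Trav14n-3, Trav4d-4, Trav12n-2, Trav3-3, Trav6n-6, Trav7-3, Trav4-4-dv10 and Trav6d-7. Their means ran from 127 to 207 normalized reads, against a median of 60.0 over all 99 rows. Read numbers are not corrected for length. On a mean per kilobase of transcript, 11 of the 12 stayed among the 12 highest, with Trav6-6 highest at 603 against a median of 155. Trav6-6 had 216 and 175 normalized reads in Treg of KO mice, 207 and 216 in Treg of WT mice, 198 and 223 in Teff of KO mice, and 214 and 210 in Teff of WT mice. Its groups overlapped throughout. Trav1 had 24.8 and 21.4 in Treg of KO mice, 45.8 and 42.7 in Treg of WT mice, 20.7 and 39.3 in Teff of KO mice, and 23.6 and 49.0 in Teff of WT mice. It passed in none of the contrasts.

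In Treg, KO against WT moved individual segments in both directions while the sum stayed level. Of the 91 Trav rows tested, 13 differed (limma, adjusted p under 0.05 by Benjamini-Hochberg over 13358 genes), which is 14.3% of them, against 1.45% of all genes tested; 7 were higher in KO and 6 lower (0.674% and 0.779% of all genes tested). The median size of the log2 difference, whatever its sign, was 0.94 over Trav rows and 0.16 over all genes tested. Trav9n-1, annotated as a pseudogene, had 98.4 and 70.8 normalized reads in Treg of KO mice against 17.6 and 9.81 in Treg of WT mice. Both KO libraries lay far above both WT libraries, and it rose (log2 difference 2.57, SE 0.34, adjusted p = 0.0158; 0.0122 to 0.141 over the alternatives tried). Trav8d-2 had 71.8 and 82.5 in Treg of KO mice against 18.6 and 16.7 in Treg of WT mice, with no overlap, and rose (log2 difference 2.07, SE 0.30, adjusted p = 0.0244; 0.0189 to 0.155). Trav4-2 rose as well, with 96.4 and 76.6 in Treg of KO mice against 24.5 and 24.5 in Treg of WT mice (log2 difference 1.77, SE 0.26, adjusted p = 0.0249; 0.0201 to 0.174). Trav9n-2, Trav6n-6 and Trav9d-3 rose by smaller log2 differences of 1.47, 1.15 and 1.23.

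Among the Trav rows that fell in Treg of KO mice, Trav12-2 had 30.5 and 54.0 normalized reads against 190 and 164 in Treg of WT mice. The groups lay far apart (log2 difference -2.09, SE 0.29, adjusted p = 0.0197; 0.0152 to 0.157 over the alternatives tried). Trav4-4-dv10 had 69.8 and 59.9 in Treg of KO mice against 195 and 179 in Treg of WT mice (log2 difference -1.51, SE 0.17, adjusted p = 0.00807; 0.00703 to 0.0928). Trav10 had 23.6 and 42.3 in Treg of KO mice against 95.1 and 114 in Treg of WT mice, and Trav16n had 66.1 and 78.8 in Treg of KO mice against 185 and 197 in Treg of WT mice. Both fell, by log2 differences of -1.69 and -1.39. The pseudogene Trav13-3 was listed at 0 in both KO libraries of Treg and had 15.7 and 11.8 normalized reads in the WT libraries. The remaining 2 calls were Trav7d-6 and Trav7n-6, copies with the same coding exon, which are described together with the other copies. Fewer Trav rows were called in Treg without any 1 library, and the share of all genes called in those fits is not given here. Whether that loss was larger than over all genes was not tested. Of the 13, Trav7d-6 kept its call whichever of the 8 libraries was left out. Trav7n-6 kept it without each of the 6 libraries that list it at 0, and was under the filter without either WT library of Treg. The other 11 each lost the call without at least 3 of the libraries.

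**Figure D1:**
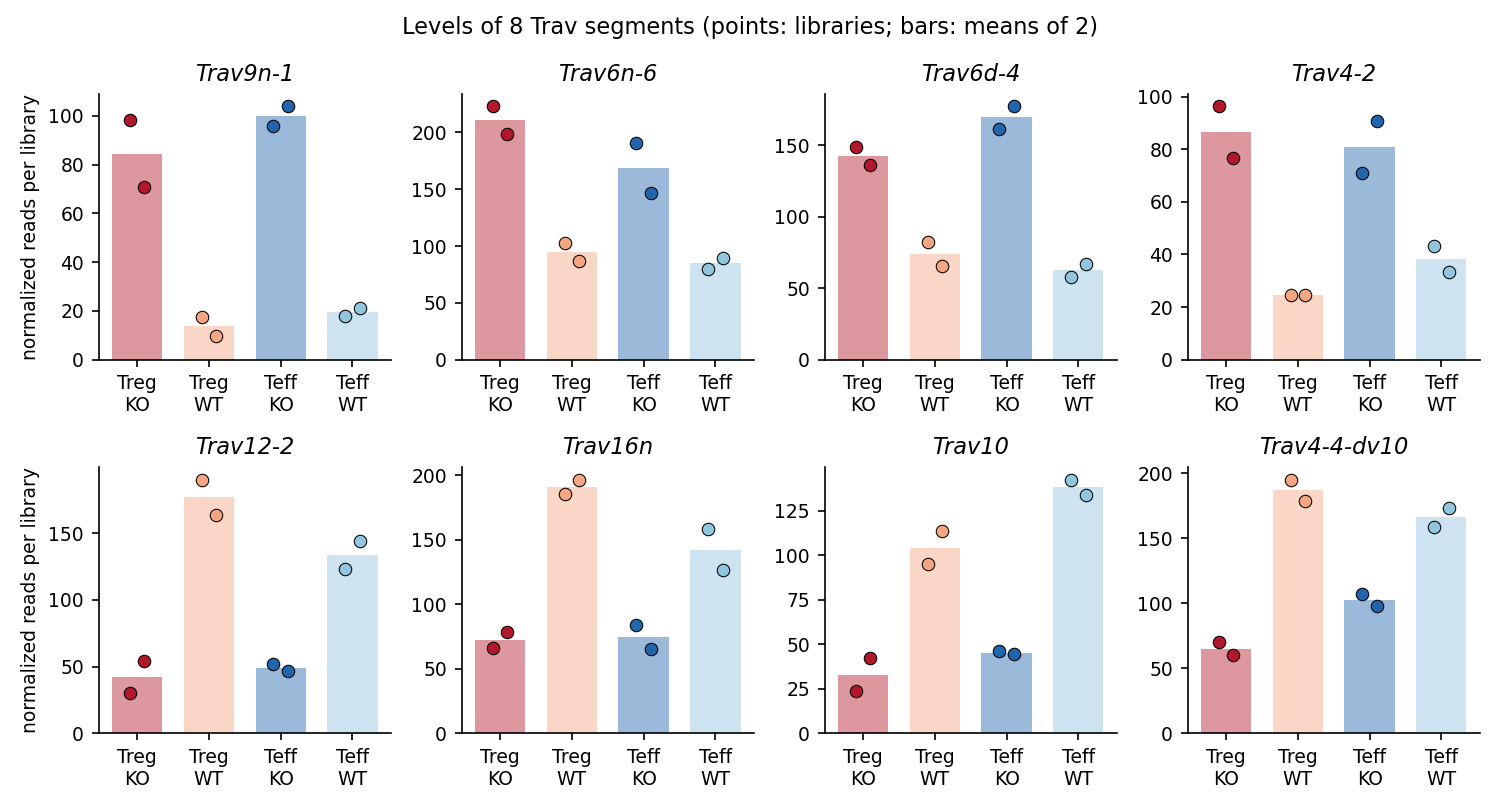
Normalized reads (vertical axis, from 0) of 8 Trav segments in Treg of KO, Treg of WT, Teff of KO and Teff of WT mice; points are libraries and bars the means of 2. The KO libraries lie above the WT libraries of the same cell type for Trav9n-1, Trav6n-6, Trav6d-4 and Trav4-2, and below them for Trav12-2, Trav16n, Trav10 and Trav4-4-dv10.

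In Teff, 21 of the 91 Trav rows differed between KO and WT, 23.1% of them against 6.92% of all genes tested; 10 were higher in KO and 11 lower (1.84% and 5.08% of all genes tested). With quantile normalization, 18 were called, 12 higher and 6 lower, and the share of all genes called in that fit is not given here. The median size of the log2 difference was 0.71 over Trav rows and 0.20 over all genes tested. Trav9n-1 had 95.9 and 104 normalized reads in Teff of KO mice against 18.1 and 21.2 in Teff of WT mice. The libraries did not overlap and it rose (log2 difference 2.29, SE 0.34, adjusted p = 0.0112; 0.00852 to 0.0668 over the alternatives tried). Trav6d-4 had 162 and 177 in Teff of KO mice against 57.6 and 67.2 in Teff of WT mice, and rose (log2 difference 1.43, SE 0.19, adjusted p = 0.00838; 0.00275 to 0.0529). Its near copy Trav6-4 rose too, with 139 and 112 in Teff of KO mice against 63.3 and 57.5 in Teff of WT mice (log2 difference 1.04, SE 0.20, adjusted p = 0.0282). Trav13n-4, Trav16d-dv11, Trav8d-1, Trav10d and Trav7-3 rose by log2 differences between 1.09 and 1.69. With copies summed, Trav7-3 still rose in Teff (log2 difference 1.07, limma adjusted p = 0.00567). The Trav8-1 copies (0.52, adjusted p = 0.0945) and the Trav13-4 copies (0.06, adjusted p = 0.931) did not pass. The sums of the Trav10 and Trav16 copies, which did not rise, are given below. Trav6n-6, called in Treg as well, had 191 and 147 in Teff of KO mice against 80.1 and 89.5 in Teff of WT mice, a log2 difference of 0.98.

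Among called rows above 0 in every library, Trav13n-1 had the largest fall in Teff. It had 3.09 and 4.12 normalized reads in Teff of KO mice against 31.1 and 39.3 in Teff of WT mice (log2 difference -2.98, SE 0.39, adjusted p = 0.00717; 0.00609 to 0.0543 over the alternatives tried). The KO libraries held few reads of this row, so the pseudocount of 1 makes its log2 difference an understatement. Trav13n-1 passed the filter through its WT libraries alone, so a difference was built into its being tested. Of its windows, 17.7% occurred in no other annotated transcript. The summed Trav13-1 copies fell in Teff by a log2 difference of -0.60 (limma, adjusted p = 0.0445). Trav19, which shares no window with any other transcript, had 45.4 and 56.6 in Teff of KO mice against 117 and 121 in Teff of WT mice. It fell with no overlap (log2 difference -1.21, SE 0.24, adjusted p = 0.0296; 0.0264 to 0.128). In Treg the same row had 27.5 and 38.3 in KO libraries against 69.6 and 71.6 in WT libraries, a log2 difference of -1.10 with an adjusted p of 0.0869. Trav3d-3, Trav7-6, Trav4d-4, Trav10 and Trav12-2 fell by log2 differences of -2.14, -1.58, -1.22, -1.59 and -1.43. Trav13-3 was listed at 0 in both KO libraries of Teff and had 10.04 and 14.1 in the WT libraries. Trav3-3, one of the 12 highest rows, rose (log2 difference 0.94), and Trav16n fell (log2 difference -0.93). Trav3-3 and its copy Trav3d-3 moved against each other, and their sum had a log2 difference of -0.21 in Teff (limma, adjusted p = 0.553). The remaining calls, Trav16 and Trav12n-3, were chosen for mention after their values were seen. Trav16 fell (log2 difference -2.58), and Trav12n-3 was listed at 0 in both KO libraries of Teff against 48.2 and 68.6 in the WT libraries. Fewer Trav rows were called in Teff without any 1 library, and the share of all genes called in those fits is not given here. None of the 16 rows named by rule kept its call whichever library was left out.

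Trav rows moved the same way in both cell types more often than not. The log2 differences in Treg and in Teff share no library, but their tests share 1 estimate of spread per gene from all 8 libraries. Calls in the 2 cell types are therefore not independent of each other. A set of 6 Trav rows was called in both with the same sign, 6.59% of those tested against 0.958% of all genes tested. It held Trav9n-1 and Trav6n-6, higher in KO, and Trav12-2, Trav16n, Trav10 and Trav13-3, lower in KO. These are 46.2% of the Treg calls and 28.6% of the Teff calls. Trav13-3, listed at 0 in all 4 KO libraries, passed the filter through its WT libraries alone, so a difference was built into its being tested, and so did Trav13n-1 and Trav7n-6. Among the 85 Trav rows with a value of at least 10 in both genotypes, a restriction added after the data were seen, 11 were called in Treg (12.9%, against 1.36% of all genes so restricted), 19 in Teff (22.4%, against 6.90%) and 5 in both with the same sign (5.88%, against 0.919%). The log2 differences had the same sign in 74 of 91 Trav rows (81.3%), and in 62.8% of all genes tested. Across the 91 rows the differences in Treg and in Teff had a Pearson r of 0.65 and a Spearman rho of 0.75, and r was 0.79 over the 80 tested rows above 0 in every library; rows are not independent, since copies share reads. In 38 of 91 rows (41.8%) the 4 KO libraries did not overlap the 4 WT libraries, against 6.51% of all genes tested; 18 rows were higher in KO and 20 lower (3.06% and 3.44% of all genes tested).

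**Figure D2:**
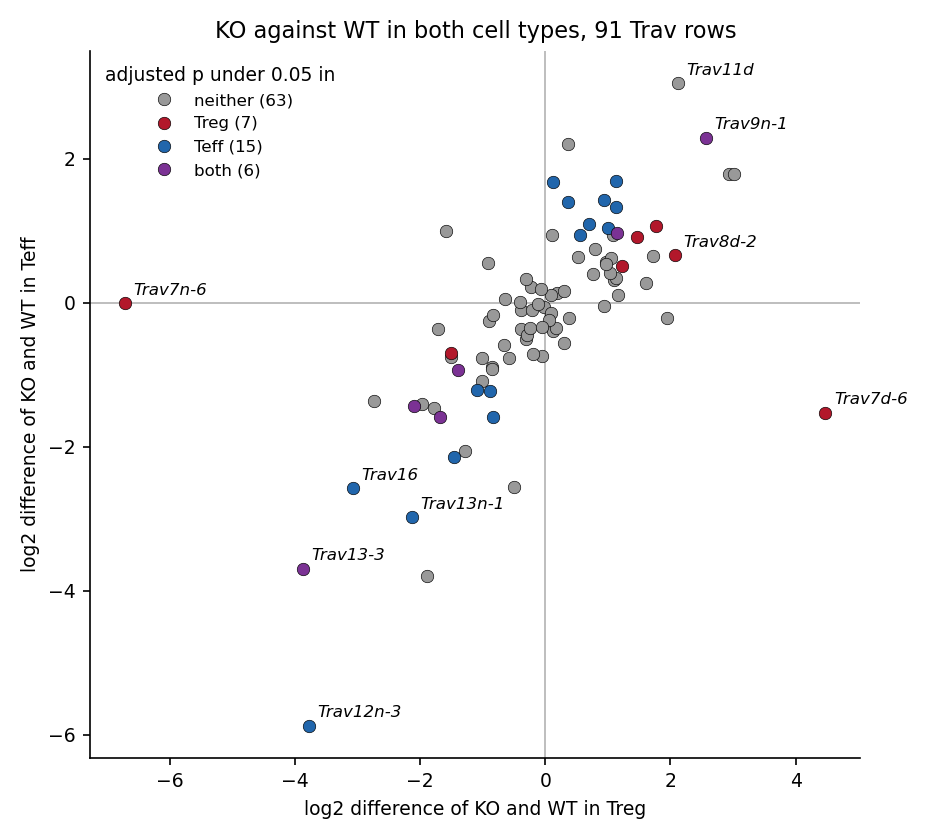
Log2 difference of KO and WT in Treg (horizontal axis) and in Teff (vertical axis) for the 91 tested Trav rows, coloured by the cell type in which the adjusted p is under 0.05. Most rows lie along the rising diagonal, and Trav7d-6 and Trav7n-6 stand off it; rows listed at 0 in a group (Trav7d-6, Trav7n-6, Trav13-3, Trav12n-3) have differences that depend on the pseudocount.

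The share profile of a library, each row as a percent of the Trav total, gave the same order with the total removed. The distance between a pair of libraries was taken as the share of Trav reads that would have to move to other rows to make the profiles equal. Between KO and WT libraries of the same cell type it was 23.6 to 31.9 percentage points (8 pairs). Between Treg and Teff libraries of the same genotype it was 13.0 to 18.0 (8 pairs), and between libraries of the same group 8.29 to 12.9 (4 pairs). Every genotype pair thus lay above every cell type pair. With copies summed the distances were 15.6 to 23.2 between genotypes, 9.78 to 13.0 between cell types and 4.84 to 6.45 within groups.

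The alpha joining segments (Traj, 56 rows) and the beta variable segments (Trbv, 24 rows) of the same table were set beside the Trav rows. Traj profiles differed by 20.7 to 24.5 percentage points between genotypes of a cell type, 12.5 to 19.6 between cell types and 7.81 to 13.4 within groups. Trbv profiles differed by 7.21 to 9.13 between genotypes, 5.47 to 10.5 between cell types and 2.49 to 3.30 within groups. In Treg, 13 of 91 Trav rows were called between KO and WT (14.3%), 3 of 44 tested Traj rows (6.82%) and 1 of 21 tested Trbv rows (4.76%), against 1.45% of all genes tested. In Teff it was 21 of 91 Trav (23.1%), 3 of 44 Traj (6.82%) and 5 of 21 Trbv rows (23.8%), against 6.92% of all genes tested, which the Traj share did not exceed. The 4 KO libraries did not overlap the 4 WT libraries in 38 Trav, 10 Traj and 4 Trbv rows, which is 41.8%, 22.7% and 19.0% of those tested, against 6.51% of all genes tested. The 3 Traj calls were all lower in KO in each cell type, unlike the Trav calls, which went both ways. The Trbv call in Treg was lower, and in Teff 1 Trbv call was higher and 4 were lower. Traj rows summed to 1053.5 and 1108.5 normalized reads in Treg of KO mice against 1403.1 and 1311.5 in Treg of WT mice. In Teff they summed to 1172.6 and 1320.3 in KO libraries against 1415.2 and 1603.4 in WT libraries. These differences between kinds of segment were not tested.

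**Figure D3:**
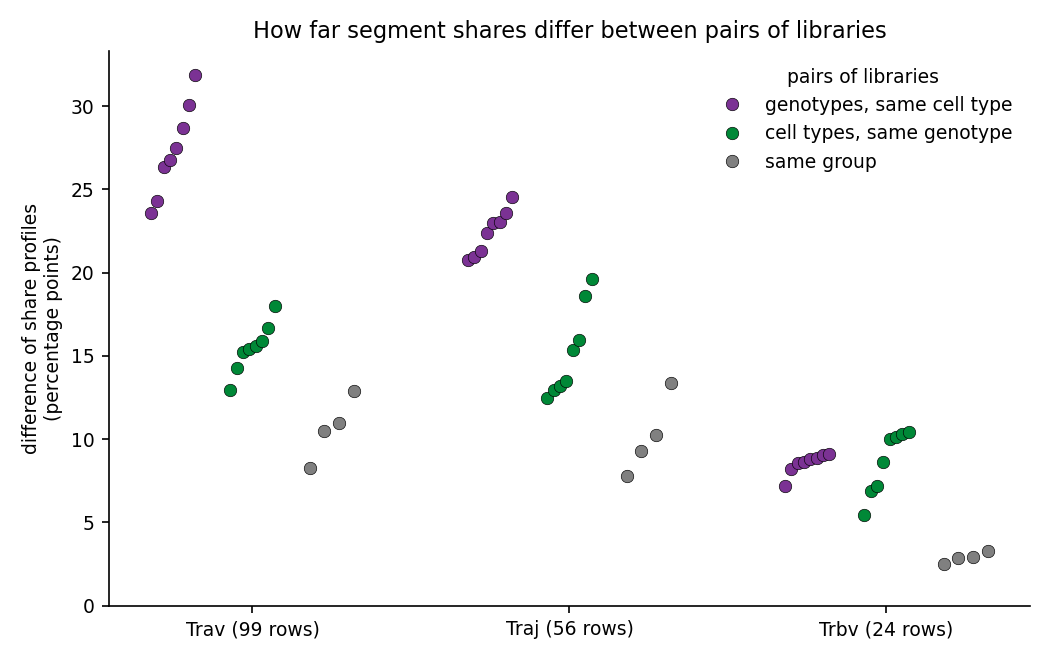
Difference of the segment share profiles (vertical axis, percentage points of the segment total, from 0) between pairs of libraries, for Trav, Traj and Trbv rows; each point is 1 pair. For Trav and Traj every pair of genotypes lies above every pair of cell types, and for Trbv these pairs overlap.

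Summing the copies of a segment kept part of the KO differences. With d, n and letterless copies summed, 47 segments could be tested, and 9 differed in Treg (19.1%, against 1.43% of all genes in that fit) and 8 in Teff (17.0%, against 6.82%). Segments called in both cell types were Trav6-4, Trav7-3 and Trav9-1, higher in KO, and Trav4-4 and Trav7-6, lower in KO. The Trav6-4 copies summed to 316 and 310 normalized reads in Treg of KO mice against 157 and 161 in Treg of WT mice, and to 301 and 290 in Teff of KO mice against 121 and 125 in Teff of WT mice. Both KO groups lay at close to the same level, well above both WT groups (log2 difference 0.97, SE 0.12, adjusted p = 0.0132 in Treg; 1.26, SE 0.12, adjusted p = 0.00275 in Teff). The Trav4-4 copies, Trav4d-4 and Trav4-4-dv10, summed to 158 and 194 in Treg of KO mice against 380 and 400 in Treg of WT mice, and to 189 and 179 in Teff of KO mice against 346 and 369 in Teff of WT mice. They fell in both (log2 differences -1.15 and -0.95, adjusted p = 0.0109 and 0.0105).

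Other copies moved against each other, so that their sums changed less than the rows. Trav10d had 69.1 and 74.2 normalized reads in Teff of KO mice against 20.1 and 23.2 in Teff of WT mice, and rose (log2 difference 1.68, SE 0.33, adjusted p = 0.0290; 0.0248 to 0.303 over the alternatives tried). Trav10 had 46.4 and 44.3 in Teff of KO mice against 143 and 134 in Teff of WT mice, and fell (log2 difference -1.59, SE 0.29, adjusted p = 0.0229; 0.0165 to 0.303). Trav10n had 60.8 and 70.0 in Teff of KO mice against 72.3 and 62.5 in Teff of WT mice, with overlap. The 3 Trav10 copies, printed above, summed to 176 and 188 in Teff of KO mice against 235 and 220 in Teff of WT mice, a log2 difference of -0.32 (SE 0.16, adjusted p = 0.303). Trav16d-dv11 likewise had 116 and 116 in Teff of KO mice against 50.2 and 41.3 in Teff of WT mice and rose (log2 difference 1.33, adjusted p = 0.0156), beside the falls of Trav16n and Trav16. The Trav16 copies summed to 207 and 196 in Teff of KO mice against 263 and 248 in Teff of WT mice (log2 difference -0.34, adjusted p = 0.153). In Treg their sum fell, with 167 and 175 in KO libraries against 303 and 296 in WT libraries (log2 difference -0.80, SE 0.12, adjusted p = 0.0278).

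The identical copies Trav7d-6 and Trav7n-6 gave the most extreme rows and need to be read as a sum. Trav7d-6 had 17.7 and 25.5 normalized reads in Treg of KO mice and was listed at 0 in both Treg libraries of WT mice, while Trav7n-6 was listed at 0 in Treg of KO mice and had 107 and 101 in Treg of WT mice. In Teff all reads stood under Trav7d-6, with 26.8 and 28.8 in KO libraries against 80.4 and 83.7 in WT libraries. Trav7n-6 was thus above 0 in the Treg libraries of WT mice alone. The sum of both rows was 17.7 and 25.5 in Treg of KO mice against 107 and 101 in Treg of WT mice, and it fell in both cell types (log2 difference -2.24, SE 0.25, adjusted p = 0.00829 in Treg; -1.53, SE 0.25, adjusted p = 0.0157 in Teff). This sum was chosen after the values were seen, by joining rows that share at least 90% of windows. With Trav7-6 added, the 3 copies had 42.7 and 50.6 in Treg of KO mice against 146 and 153 in Treg of WT mice, and 39.4 and 42.5 in Teff of KO mice against 118 and 128 in Teff of WT mice. They fell in both cell types (log2 difference -1.67, SE 0.19, adjusted p = 0.00887 in Treg; -1.57, SE 0.19, adjusted p = 0.00569 in Teff).

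Trav12d-3 and Trav12n-3, joined by the same share of windows, also fell as a sum in both cell types. They had 48.2 and 44.2 in Treg of KO mice against 128 and 131 in Treg of WT mice, and 72.2 and 92.7 in Teff of KO mice against 151 and 156 in Teff of WT mice. No library overlapped between genotypes (log2 difference -1.47, SE 0.19, adjusted p = 0.0150 in Treg; -0.90, SE 0.19, adjusted p = 0.0357 in Teff).

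**Figure D4:**
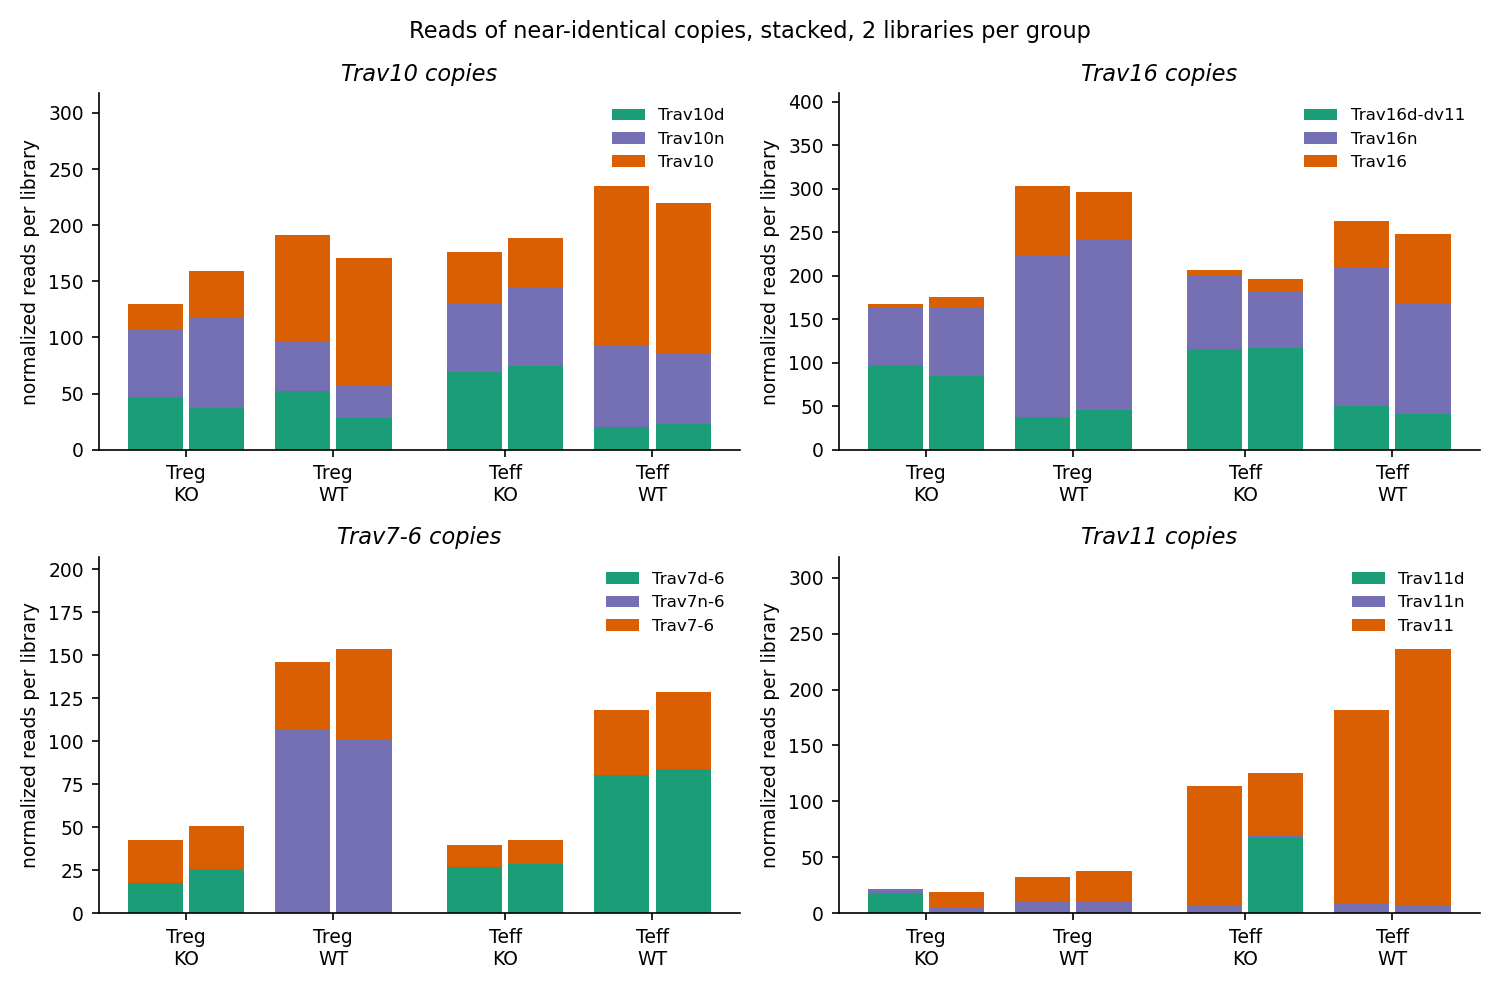
Normalized reads (vertical axis, from 0) of the copies of Trav10, Trav16, Trav7-6 and Trav11, stacked, in each of the 2 libraries of Treg of KO, Treg of WT, Teff of KO and Teff of WT mice. The Trav7d-6 and Trav7n-6 parts trade places in Treg of WT mice while the 3 copies sum to 146 and 153 there and 118 and 128 in Teff of WT mice, and Trav11 copies sum to 18.7 to 37.3 in Treg and 113 to 236 in Teff.

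Sharing of sequence was measured beside the calls. Of the 21 Trav rows with no window of their own, 4 were called in Treg (19.0%, against 1.45% of all genes tested) and 2 in Teff (9.52%, against 6.92%). Of the 64 tested rows with some windows of their own, 9 were called in Treg (14.1%) and 18 in Teff (28.1%). Of the 10 rows with all windows their own, 6 were tested, and 0 passed in Treg and 1, Trav19, in Teff. In limma 4 of these 6 had an unadjusted p under 0.05 in Treg and 2 in Teff, as had 52 and 40 of all 91 tested Trav rows. The share of all genes under that unadjusted threshold is not given here. These 6 rows, Trav1, Trav2, Trav5-1, Trav17, Trav19 and Trav21-dv12, had a median size of log2 difference of 0.94 in Treg and 0.26 in Teff. Trav2 had 129 and 120 normalized reads in Treg of KO mice against 41.0 and 39.3 in Treg of WT mice, with no overlap. Its log2 difference of 1.60 (SE 0.33) had an adjusted p of 0.0703, and in the authors' deposited table a log2 fold change of 1.63 had an adjusted p of 0.0261.

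Shares were also summed by place in the locus. The labels give no litter or breeding of the mice, so what the IRE1a genotype brings and what else may differ between KO and WT mice, at the Trav locus included, cannot be told apart. The 99 rows in chromosome order were divided into blocks of 25, 25, 25 and 24 rows, from Trav1 towards the joining segments. The first block held 29.1% and 26.2% of Trav reads in Treg of KO mice against 23.1% and 16.8% in Treg of WT mice, and 25.1% and 27.8% in Teff of KO mice against 22.1% and 19.98% in Teff of WT mice. The KO libraries were above the WT libraries in both cell types. The fourth block held 12.01% and 14.5% in Treg of KO mice against 19.8% and 20.3% in Treg of WT mice, and 14.7% and 14.7% in Teff of KO mice against 17.7% and 19.7% in Teff of WT mice. Here the KO libraries were below the WT libraries. Of 24 tested rows in the first block, 18 had a higher KO mean in Treg and 16 in Teff; of 18 tested rows in the fourth block, 2 did in Treg and 6 in Teff.

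By family, the name's first number, shares are given for 3 families chosen after their values were seen, with no test. The 12 rows of family 6 held 21.2% and 18.76% of Trav reads in Treg of KO mice against 16.0% and 16.3% in Treg of WT mice, and 17.0% and 16.2% in Teff of KO mice against 13.6% and 13.4% in Teff of WT mice. The 8 rows of family 12 held 5.79% and 6.55% in Treg of KO mice against 9.87% and 9.68% in Treg of WT mice, and 7.86% and 8.39% in Teff of KO mice against 9.25% and 9.20% in Teff of WT mice. The 6 rows of family 4 held 6.11% and 6.37% in Treg of KO mice against 8.56% and 9.05% in Treg of WT mice, and 5.84% and 6.13% in Teff of KO mice against 7.43% and 7.34% in Teff of WT mice. Family 6 thus lay higher in KO libraries of both cell types, and families 12 and 4 lower.

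Along the locus the log2 difference of KO and WT had a Spearman rho with the order of the rows of -0.50 in Treg and -0.37 in Teff, over 91 rows whose neighbours and copies share reads. No p is given for these values. Place and copy letter go together: in chromosome order came 6 rows with no letter, then the 28 d copies, the 21 n copies and the other 44 rows with no letter. The 28 d copies held 35.2% and 33.7% of Trav reads in Treg of KO mice against 29.6% and 23.2% in Treg of WT mice, and 31.9% and 33.2% in Teff of KO mice against 28.6% and 27.1% in Teff of WT mice. The 50 rows with no letter held 45.04% and 45.9% in Treg of KO mice against 51.2% and 54.3% in Treg of WT mice, and 46.4% and 45.8% in Teff of KO mice against 51.1% and 53.0% in Teff of WT mice. The n copies lay between 19.2% and 22.5% in all 8 libraries. A letter does not fix where the reads came from: 8 d rows, 6 n rows and Trav6-6 have the same transcript as an annotated copy that is not analysed here, such as Trav4d-4 and Trav4n-4, and may hold its reads. Among the 84 rows without these, a restriction added after the data were seen, the 20 d copies held 28.6% and 25.9% in Treg of KO mice against 20.7% and 11.8% in Treg of WT mice, and 25.7% and 29.8% in Teff of KO mice against 19.5% and 17.6% in Teff of WT mice, and the Spearman rho with place was -0.54 in Treg and -0.43 in Teff over 76 tested rows. The 8 pseudogenes other than Trav9n-1 together held 0.587% and 0.539% in Treg of KO mice against 0.962% and 0.704% in Treg of WT mice, and 0.539% and 0.789% in Teff of KO mice against 0.907% and 0.798% in Teff of WT mice. Their sum thus did not rise with Trav9n-1, but single rows differed. Trav4d-2 was higher in all 4 KO libraries than in all 4 WT libraries, as Trav9n-1 was, and Trav13-3 was lower.

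**Figure D5:**
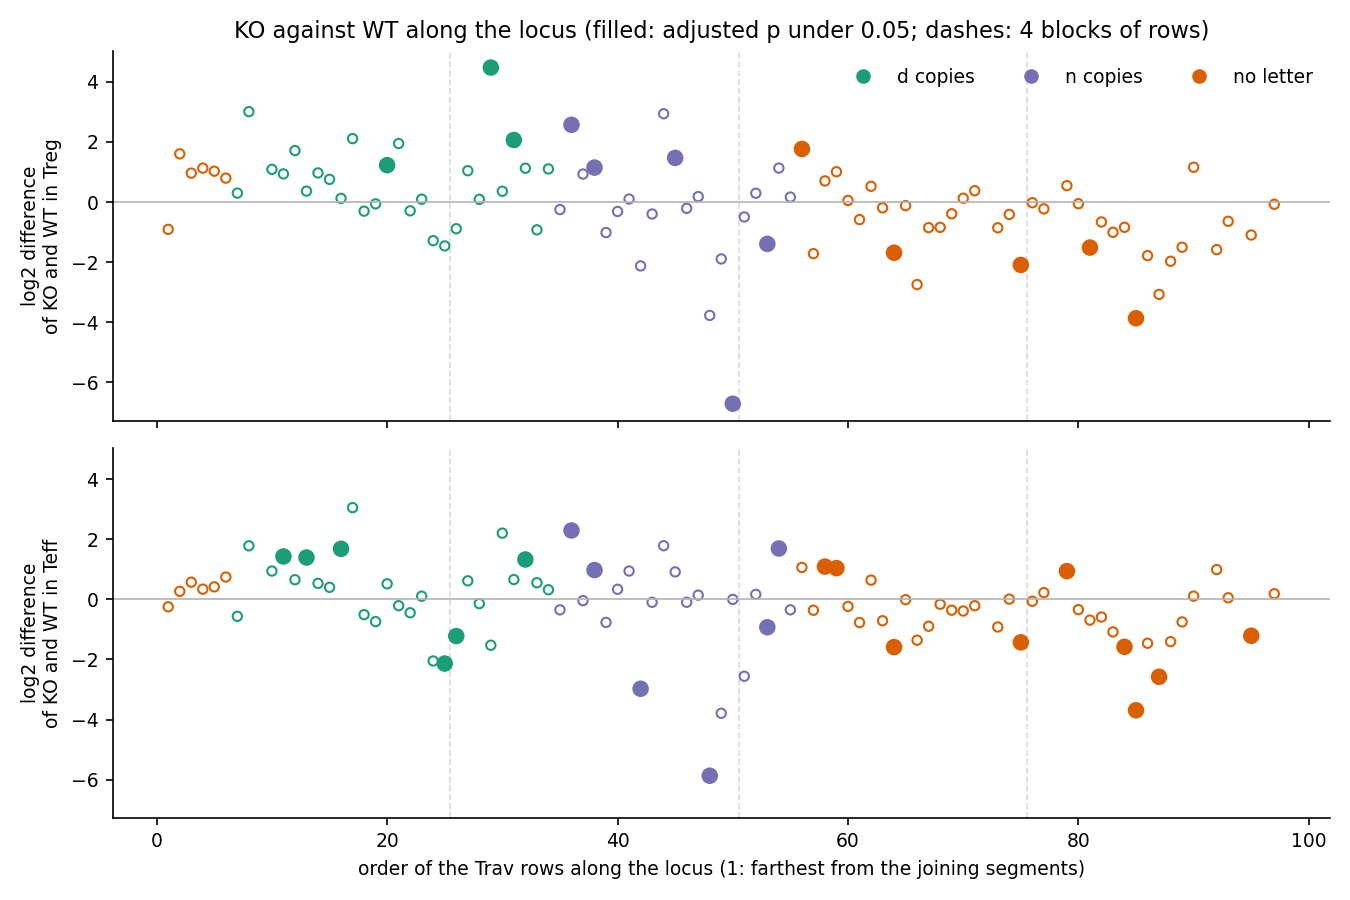
Log2 difference of KO and WT in Treg (upper panel) and Teff (lower panel) for the 91 tested Trav rows in their order along the locus, coloured by copy letter and filled where the adjusted p is under 0.05. Rows to the left of the plot lie more often above 0 and rows to the right more often below it, with a Spearman rho of -0.50 in Treg and -0.37 in Teff.

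Whether the KO difference itself differed between Treg and Teff was tested as an interaction. Of the 91 Trav rows, 1 passed, Trav7d-6 (adjusted p = 0.0247; 0.00635 to 0.944 over the alternatives tried), which is 1.1% against 0.0225% of all genes tested. Its interaction was positive, and 0 Trav rows had a negative one past the threshold (0% of all genes tested). As its values above show, the Treg libraries of WT mice carried these reads under Trav7n-6, and the sum of both rows had an interaction with an adjusted p of 0.564. At an unadjusted p under 0.05, 9 Trav rows differed in limma (9.89%, against 10.4% of all genes tested), 4 with a positive interaction and 5 with a negative one. With any 1 of the 8 libraries left out, Trav7d-6 lost its call, and the share of all genes called in those fits is not given here. A row that passed in 1 cell type and missed the threshold in the other has thus not been shown to differ between them.

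The share of Trav rows called between cell types was below that of all genes, a gap that was not tested. More Trav rows were called with quantile normalization, for which the share of all genes is not given here. Between Treg and Teff of KO mice 8 of 91 Trav rows differed, 8.79% against 26.9% of all genes tested, and between Treg and Teff of WT mice 9 of 91, 9.89% against 25.1%. In KO 2 rows were higher in Treg and 6 lower, against 15.7% and 11.2% of all genes tested. In WT 2 were higher and 7 lower, against 13.5% and 11.6%. With quantile normalization 18 rows were called in KO, 1 higher and 17 lower, and 14 in WT, 1 higher and 13 lower. The split was 3 and 5 in KO with library sums made equal, and 3 and 3 in both with Trav values set relative to the Trav total. In 10 rows (11% against 33.7% of all genes tested) the 4 Treg libraries did not overlap the 4 Teff libraries. All 10 were lower in Treg, a pattern of 15.8% of all genes tested, and 0 were higher, a pattern of 17.9%. The Trav total was lower in all 4 Treg libraries too. Among the 10, Trav7d-6 stood at 0 in Treg of WT mice, where its identical copy Trav7n-6 held the reads. Their sum was not lower there, with 107 and 101 in Treg of WT mice against 80.4 and 83.7 in Teff of WT mice.

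The invariant NKT segment stood lower in Treg than in Teff. Trav11 had 0 and 12.8 normalized reads in Treg of KO mice against 107 and 55.6 in Teff of KO mice, and fell (log2 difference -4.40, SE 1.06, adjusted p = 0.0203; 0.000217 to 0.101 over the alternatives tried). In WT mice it had 21.6 and 26.5 in Treg against 174 and 230 in Teff (log2 difference -3.01, SE 1.06, adjusted p = 0.0804). Its near copy Trav11d was listed at 0 in 6 libraries and had 17.7 in Treg KO library 1 and 68.0 in Teff KO library 2, the libraries in which Trav11 was lowest of its group. All windows of Trav11d occur in Trav11 too, as the 50 bases at chr14:52824768-52824817 (Trav11d) and chr14:53519714-53519763 (Trav11) show, which have no position that differs.
Trav11d: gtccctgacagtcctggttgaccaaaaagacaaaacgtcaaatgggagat
Trav11: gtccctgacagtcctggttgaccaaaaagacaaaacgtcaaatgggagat
The sum of Trav11 and Trav11d was 17.7 and 12.8 in Treg of KO mice against 107 and 124 in Teff of KO mice, and 21.6 and 26.5 in Treg of WT mice against 174 and 230 in Teff of WT mice. This sum fell in Treg of both genotypes (log2 difference -2.86, SE 0.27, adjusted p = 0.000264 in KO; -3.01, SE 0.27, adjusted p = 0.000291 in WT). Between KO and WT it did not pass, with adjusted p of 0.339 in Treg and 0.143 in Teff.

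Markers of invariant NKT and NK cells moved with Trav11. The 8 listed genes, all in the table, summed to 74.99 and 69.7 normalized reads in Treg of KO mice against 1120 and 1025 in Teff of KO mice, and to 85.5 and 113 in Treg of WT mice against 1311 and 1517 in Teff of WT mice. In both cell types this sum was lower in the KO libraries than in the WT libraries, which did not hold for every listed gene. Zbtb16, a transcription factor of NKT cells, had 7.84 and 3.39 in Treg of KO mice against 153 and 141 in Teff of KO mice, and 2.35 and 1.57 in Treg of WT mice against 192 and 202 in Teff of WT mice. In Treg Zbtb16 was thus higher in KO, at few reads, Eomes was lower, and Klrk1, Klrd1, Klrb1c and Klrb1a overlapped between genotypes. Ncr1 and Klra1 were listed at 0 in Treg. In Teff Klrk1, Klrd1, Eomes and Klra1 overlapped between genotypes, and Zbtb16, Klrb1c, Klrb1a and Ncr1 were lower in KO. The part of these markers in the Trav11 difference was not tested.

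The other Trav rows called between Treg and Teff were each called in 1 genotype, and of them Trav7d-6 alone passed the test of the difference between genotypes, given above. In KO, Trav2 had 129 and 120 normalized reads in Treg against 33.8 and 50.4 in Teff, and was higher in Treg (log2 difference 1.56, SE 0.33, adjusted p = 0.0112; 0.00597 to 0.0644 over the alternatives tried). In WT the same row had 41.0 and 39.3 in Treg against 25.7 and 45.2 in Teff, with overlap. Trav8d-2 was higher in Treg of KO mice, and Trav12-1, Trav14n-1, Trav4-4-dv10, Trav12n-1 and Trav8d-1 were lower, by log2 differences between -1.12 and -0.65. In WT, Trav14n-3 had 89.7 and 119 in Treg against 202 and 222 in Teff, and kept its call under every alternative tried (log2 difference -1.03, SE 0.18, adjusted p = 0.00556; 0.00133 to 0.0371). Trav14d-3-dv8, Trav6-1, Trav9n-2, Trav14-1 and Trav5-1 were lower in Treg of WT mice by log2 differences between -1.09 and -0.76, Trav13d-4 was higher by 1.25, and Trav7d-6 and Trav7n-6 again stood at 0 in turn. With copies summed, 8 segments differed in KO (17.0%, against 27.1% of all genes in that fit) and 7 in WT (14.9%, against 25.2%); Trav11, Trav13-1, Trav14-1 and Trav14-3 were lower in Treg of both genotypes, and Trav2, in KO, was the 1 segment that was higher. Without any 1 library, fewer Trav rows were called in KO and in WT, and the share of all genes called in those fits is not given here.

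Genes of the receptor complex and its proximal signalling were called between genotypes at about the share of all genes. Of 30 listed, 24 were in the table and 23 were tested; the recombination genes Rag1 and Dntt are not analysed here and Rag2 was under the filter, so rearrangement was not assessed. In Treg 0 were called between KO and WT by limma, 0 had an unadjusted p under 0.05, and the median log2 difference was 0.01 against -0.01 over all genes tested. In Teff 2 of the 23 (8.70%, against 6.92% of all genes tested) fell, Zap70 and Lcp2, a kinase and an adaptor downstream of the receptor, by log2 differences of -0.28 and -0.30; 0 rose, and 1 higher gene had an unadjusted p under 0.05. Between Treg and Teff, 3 were higher and 10 lower in KO and 0 were higher and 9 lower in WT, where 2 higher genes had an unadjusted p under 0.05. These are 56.5% of the list in KO and 39.1% in WT, against 26.9% and 25.1% of all genes tested. Trac and Trbc1 are not analysed here.

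Library sums ran from 17504097 to 18751258 normalized reads. Ern1 itself had 326 and 359 in Treg of KO mice against 377 and 399 in Treg of WT mice, and 458 and 453 in Teff of KO mice against 559 and 616 in Teff of WT mice (adjusted p = 0.489 and 0.0902). The labels do not name the deleted exons, so this gene sum does not check the genotype. Foxp3, the transcription factor that defines Treg, had 89.1 to 117 normalized reads in the 4 Treg libraries and 0 to 8.29 in the 4 Teff libraries. Of 9 macrophage and monocyte markers listed, 8 were in the table, and they summed to 11053 and 10424 in Treg of KO mice against 18291 and 18830 in Treg of WT mice, and to 628 to 2073 in Teff; their part in the Trav differences was not tested. Cd8a and Cd8b1, which mark CD8 T cells, summed to 248 to 295 in all 8 libraries. Of 11 gamma-delta T cell markers listed, 7 were in the table, and they summed to 164 and 168 in Treg of KO mice against 128 and 134 in Treg of WT mice, and to 594 and 590 in Teff of KO mice against 687 and 766 in Teff of WT mice. The thymocyte markers Rag2, Ptcra and Cd1d1, 3 of 5 listed, summed to 757 and 683 in Treg of KO mice against 676 and 725 in Treg of WT mice, and to 743 and 690 in Teff of KO mice against 560 and 523 in Teff of WT mice. In Teff both KO libraries thus lay below both WT libraries for the gamma-delta sum and above them for the thymocyte sum. Nearly all of the thymocyte sum was Cd1d1, with 732 and 669 in Teff of KO mice against 542 and 497 in Teff of WT mice. Ptcra went the other way, with 8.25 and 13.4 in Teff of KO mice against 14.1 and 22.2 in Teff of WT mice, and Rag2 overlapped. The part of either sum in the Trav differences was not tested.

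In the authors' deposited table, 17 of the 93 Trav rows with an adjusted p in Treg were under 0.05, 10 higher in KO and 7 lower, which is 18.3% against 3.28% of all rows with one. In Teff the authors' deposited table had 19 of 87, 10 higher and 9 lower, 21.8% against 8.82%. Its log2 fold change of KO over WT for Trav9n-1 was 2.62 in Treg and 2.35 in Teff, and for Trav12-2 it was -2.07 in Treg and -1.45 in Teff.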

How the data were processed

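The labels' protocols describe oligo(dT)-selected RNA of the sorted cells, and reads of 50 bases, single end; no step that marks strand is named. The submitters' processing notes list Trim Galore 0.4.4, Salmon 0.14.1, DESeq2 1.28.1 and R 4.0.3, with the build mm10; how gene values were summed and normalized is not stated in them. The authors' deposited signal is 1 normalized, non-whole number of reads for each gene in each library, which does not suit a count test. Log2 fold changes and adjusted p-values of KO over WT in the authors' deposited table were used only where named.

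Each gene's log2(value + 1) was modelled in R 4.3.3 by limma 3.58.1, using trended, robust shrinkage and a mean for each of 4 groups. Benjamini-Hochberg adjustment ran over the 13358 genes that reached 10 in 2 or more libraries, and calls are at 0.05. Differences are first group minus second, and the scale understates changes of low rows. The code was tested on simulated data. Sums, shares and entropies over Trav rows carry no test. Windows and sequences come from GENCODE M21 (GRCm38), to which all 99 Trav rows were matched by gene ID. Library sums were nearly even, and 2 libraries a group limit the precision.

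Rows named with values were the 12 of highest mean, Trav11, Trav11d and Trav1, and in each contrast all called rows, or the 8 of smallest p in a direction with more; exceptions are marked, beside Trav10n, given with its copies. The members and lists were chosen with earlier results of these data known. Alternatives were 2 pseudocounts, 2 filters, 3 scalings, other shrinkage, fits of only the groups compared, a replicate block, summed copies, values relative to the Trav total, and each library left out. Division of the Trav sum by Trac was planned and not run, since Trac is not analysed here.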

Additional observations from a re-analysis of the deposited data

Results flagged for a closer look

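Trav7d-6 stood out because the difference of KO and WT in Treg was not the same as that in Teff (limma interaction, adjusted p = 0.0247). Its values were 17.7 and 25.5 normalized reads in Treg of KO mice against 0 and 0 in Treg of WT mice, and 26.8 and 28.8 in Teff of KO mice against 80.4 and 83.7 in Teff of WT mice. The row Trav7n-6, with the same coding exon, had 107 and 101 in Treg of WT mice and 0 in the other 6 libraries. With both rows summed, the interaction had an adjusted p of 0.564. No group had the 4 libraries needed to look for a library apart from the others.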

How the results depend on the processing

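Named row results, 47 in all, were recomputed under 976 alternatives: 683 kept direction and side of the threshold, 285 lost the call and 8 reversed. A gain was not possible, since every one of the 47 was a call to begin with. Trav7n-6 in Treg (KO against WT) and Trav14n-3 in WT (Treg against Teff) kept their call under the 19 and 21 alternatives run for them (without either Treg WT library, Trav7n-6 was under the filter); of 372 that leave out 1 library, which leaves a group with 1 library assumed to vary like the others, 191 lost the call. Trav rows called between KO and WT numbered 13 in Treg and 21 in Teff. They were 5 and 5 with only the groups compared fitted, 9 and 8 with copies summed, and 1 to 11 and 3 to 17 without 1 library. The interaction of genotype and cell type called 1 row, and called 2 with a pseudocount of 5, 2 with no filter, 2 with no trend or robust shrinkage, and 0 with a filter of 50, with copies summed, with rows sharing 90% of windows summed (added after the data were seen) and without any 1 library (7 to 12 rows at an unadjusted p under 0.05 in limma under these). Treg against Teff called 8 rows in KO and 9 in WT: 18 and 14 with quantile normalization, 4 and 7 with only the groups compared fitted, and fewer without any 1 library. With the replicate number as a block, calls were 5 in Treg, 18 in Teff, 0 for the difference, 6 in KO and 6 in WT; equal numbers share no source in the labels, and deviations of equally numbered libraries correlated at -0.0384 to 0.059. The Trav sum's log2 ratio of Treg to Teff was -0.20 in KO and -0.24 in WT, and -0.13 and -0.18 with equal library sums; the effective number in Teff was 1.71 lower in KO, and 0.117 higher with copies summed.

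All 8 reversals came from summing copies. For Trav7d-6, copies summed and rows sharing 90% of windows summed gave log2 differences of -1.67 and -2.24 (KO against WT in Treg), -0.10 and -0.71 (interaction), and 0.28 and 0.34 (Treg against Teff in WT). With copies summed, KO against WT in Teff was -0.34 for Trav16d-dv11 and -0.32 for Trav10d. Division of the Trav sum by Trac was not run, since Trac is not analysed here. Rows that reached 10 normalized reads in fewer than 2 libraries were not tested, and the number of whole reads behind a value is unknown.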
